A study of Xenopus laevis with 4 samples.

Results

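Cell cycle and DNA replication genes were examined in pancreatic buds of *Xenopus laevis* tadpoles, comparing the dorsal with the ventral bud. They were taken by gene symbol from a 1-colour Affymetrix array: every probe set that is not a control, carries exactly 1 gene symbol, and has a symbol of the minichromosome maintenance, origin recognition, cyclin, Cdk, kinesin, condensin and related families. The rule took 220 of 15491 probe sets, which stood for 179 of 7531 symbols and, with the copies of both subgenomes joined, 142 genes. Each of the 4 samples was total RNA from a pool of 1000 to 3000 individual buds, 2 pools of dorsal and 2 of ventral buds, collected before the buds fuse. All groups came from embryos raised in 0.1X MMR and tadpoles anaesthetised in MS-222, with no other treatment named. Strain, genotype and stage are not given in the sources used here. Whether the 2 pools of a bud stem from different batches of embryos is not stated. The p-values below therefore describe the spread among these 4 samples, which may be technical.

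A cell that divides first loads the Mcm2-7 helicase at replication origins (licensing), then fires those origins and copies its DNA with a clamp, a clamp loader and replicative polymerases. Cyclins bound to cyclin-dependent kinases (Cdks) drive the firing of origins and the entry into mitosis, and E2F factors switch on many of the genes. Wee1 kinase and Cdc25 phosphatase set the moment of mitosis by adding and removing an inhibitory phosphate on Cdk1. In mitosis, condensin compacts the chromosomes, kinesins and Aurora and Polo kinases build the spindle, and the spindle checkpoint holds back the anaphase promoting complex until all chromosomes are attached. In a growing organ bud such transcripts come mostly from dividing cells, so in pooled tissue a smaller share of dividing cells and less RNA per cell cannot be told apart.

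The symbol rule also caught genes known for other work, which does not exclude a part in the cell cycle. Of the 220 probe sets, 41 stood for genes such as cdc42 and its partners (cell polarity and actin), cdc37 (an Hsp90 cochaperone), cdc5l and cdc40 (splicing), cdc73 (transcription elongation), cdc34 (a ubiquitin-conjugating enzyme) and the Cdks of transcription. The pattern for Cdk inhibitors took only cdkn2aip, which encodes a protein that is not itself a Cdk inhibitor. Some kinesins among the 19 probe sets of that family, such as kif5b and kif3b, carry cargo along microtubules.

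Values are deposited intensities on a linear scale, scaled before deposit to a mean of 100 on every array; array medians, controls left out, lay between 21.8 and 24.2. Of the 220 probe sets, 157 lay above 21.5 on all 4 arrays, the highest value of the 17 synthetic tag probe sets, which match no frog transcript. A further 39 lay at or below that value on all 4 arrays and 24 lay above it on some. The filter on low values left 177 of the 220 for testing, and the 43 others are described by their intensities only. Pancreatic exocrine marker transcripts were present on every array, with intensities of 15 probe sets summing to 16272 and 6178 in dorsal replicates 1 and 2 and to 12606 and 6609 in ventral replicates 1 and 2; cpa1.S and pnlip.L were at or below the tag value throughout. Summed intensities of markers of other cell types were unequal between the buds. The threshold was passed by 0 of 8 tested blood, 0 of 14 skeletal muscle, 2 of 21 liver and 4 of 8 endocrine probe sets. An unadjusted limma p under 0.05 was reached by 7, 11, 12 and 8 of them, against 8.62% of all probe sets. The log2 difference, dorsal minus ventral, was below 0 for all 8 blood, all 14 skeletal muscle and 19 of the 21 liver probe sets. It was above 0 for all 8 endocrine ones. Blood markers (11 probe sets, hba1.S and hbg1.L at or below the tag value) summed to 9166 and 5804 in dorsal against 10883 and 15192 in ventral pools. Those of skeletal muscle (16 probe sets, acta1.S and a probe set of myl1.L at or below it) summed to 477 and 323 against 964 and 1282. Liver markers (24 probe sets, f2.S and those of fga.L at or below it) summed to 3276 and 5844 in dorsal and 8583 and 8342 in ventral pools. Endocrine markers (14 probe sets, chga.S, gcg.L, scg2.L and sst.1.L at or below it) stood at 3697 and 4460 against 190 and 150. The part of these cell types in the differences below was not tested.

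No tested cell cycle or replication gene differed between the buds past the threshold, and no tested difference reached 2-fold. With limma and Benjamini-Hochberg adjustment over all 9294 probe sets tested, 0 of the 177 had an adjusted p under 0.05, where 24 of all probe sets did (0.258%), of which 7 were higher in dorsal (0.0753%) and 17 in ventral buds (0.183%). Log2 differences, dorsal minus ventral on the log2(intensity + 6) scale, ran from -0.63 for cdc42ep4.L to 0.61 for kif5b.S, and none reached 1 in size, which 2.27% of all probe sets did. For 152 of the 177 the 95% interval of the difference lay wholly within 2-fold in either direction (85.9%, against 82.2% of all probe sets), and for 54 it lay within 1.5-fold (30.5%, against 24.0%). The median interval reached 0.49 log2 units to either side. In fits without 1 array, the bud left with 1 pool shows no spread of its own and was assumed to vary as the other bud's pools. The SD of the gap between pools, over the 177, was 0.40 for dorsal and 0.26 for ventral pools. Adjusted p-values from fits without a dorsal array, here and below, thus do not measure the dorsal spread. Without dorsal replicate 1, 11 probe sets passed, all higher in dorsal buds (6.21%, against 9.71% of all probe sets in that fit). Without dorsal replicate 2, 1 passed (0.565%, against 3.74%), and without either ventral replicate 0 did (against 0.0430% of all in each). The 11 and the 1 shared no probe set.

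Most differences pointed to the dorsal side. The log2 difference was above 0 for 135 of the 177 (76.3%, against 54.3% of all probe sets tested), and the median was 0.13, against 0.03 over all. Arrays of the buds did not overlap for 39.9% of all probe sets. Both dorsal arrays lay above both ventral arrays for 64 of the 177 (36.2%, against 21.9%), and both ventral above both dorsal for 11 (6.21%, against 18.1%). An unadjusted p under 0.05 was reached by 9 (5.08%, against 8.62%), 7 on the dorsal side (3.95%, against 3.41%) and 2 on the ventral side (1.13%, against 5.21%). Probe sets of one array share its RNA and labelling, so these shares carry no test. Counted by array, the median deviation of the 177 from each probe set's own mean was 0.03 in dorsal replicate 1, 0.11 in dorsal replicate 2, -0.10 in ventral replicate 1 and -0.04 in ventral replicate 2. The step between dorsal replicate 1 and ventral replicate 2 was thus smaller than the step between the dorsal replicates. Of the 177, 84 had their highest value in dorsal replicate 2, 50 in dorsal replicate 1, and 20 and 23 in ventral replicates 1 and 2. Without 1 array the median ran from 0.10 to 0.19, and the share above 0 from 65.0% to 78.5%.

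**Figure D1:**
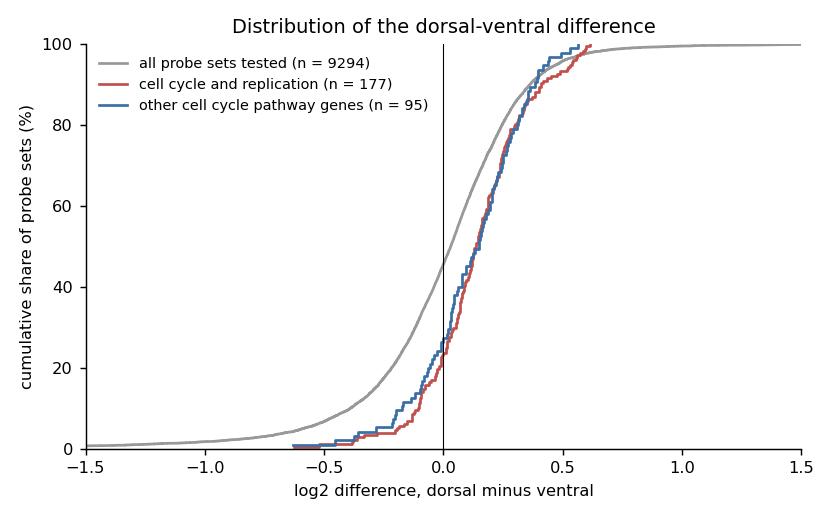
Cumulative share of probe sets (vertical axis, percent) by log2 difference, dorsal minus ventral (horizontal axis, cropped at 1.5 either way), for all 9294 probe sets tested, the 177 of cell cycle and replication genes and 95 of other cell cycle pathway genes. Both cell cycle curves lie to the right of the curve for all probe sets by about 0.1 log2 units at their medians and span a narrower range.

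In the licensing group, 22 of 25 tested probe sets had a difference above 0, with a median of 0.24. Most of its genes load or activate the replicative helicase. It also holds geminin, which blocks loading, and mcm8.L (0.26), which is not an Mcm2-7 subunit. The Mcm2-7 subunits had the higher values: 9 of 10 tested probe sets were above 0 with a median of 0.33. In 7 both dorsal arrays lay above both ventral arrays (70%, against 21.9% of all probe sets). Mcm3 was not among the 10, since mcm3.L, its only probe set taken by symbol, was too dim to be tested. Intensity of mcm7.S was 84.3 and 108 in dorsal replicates 1 and 2 and 61.9 and 60.4 in ventral replicates 1 and 2. That is a log2 difference of 0.60 ± 0.20 (SE). Its unadjusted limma p of 0.0222 and adjusted p of 0.461 were the smallest among the 177 tested probe sets taken by symbol. For mcm4.S the 4 values were 46.5 and 59.5 in dorsal and 29.6 and 37.0 in ventral pools (log2 difference 0.58 ± 0.22, adjusted p = 0.536). The arrays of the buds did not overlap for either gene, but neither passed. Other subunits lay between these and 0: mcm6.2.S was at 0.52 and 0.54 by its 2 probe sets, mcm5.S at 0.34, mcm4.L and mcm6.2.L at 0.32, mcm7.L at 0.19 and mcm5.L at 0.10. Of the 10, mcm2.L alone lay on the ventral side, with 232 and 249 in dorsal against 237 and 276 in ventral pools, overlapping values with a difference of -0.09. Without dorsal replicate 1, the difference was 0.77 for mcm7.S and 0.91 for both probe sets of mcm6.2.S. The mcm6.2.S values rested on 1 pool, with 63.9 and 110 in dorsal against 45.3 and 68.4 in ventral buds by one probe set and 17.9 and 35.2 against 14.3 and 17.6 by the other. Without dorsal replicate 2 they were 0.18 and 0.12, and that of mcm7.S was 0.43.

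Other genes of the licensing group place the helicase on DNA, activate it or block its loading. Cdc6, a loader, had a log2 difference of 0.44 for cdc6.S (64.4 and 78.4 in dorsal, 52.7 and 49.4 in ventral pools) and 0.23 for cdc6.L (45.1 and 50.7 against 35.8 and 44.2). In both copies each dorsal pool lay above each ventral pool, and neither passed (adjusted p = 0.631 and 0.802). Of the origin recognition complex, the platform on which loading starts, all 5 tested probe sets were above 0, from 0.03 for orc1.L to 0.42 for orc2.S, and 2 had arrays that did not overlap (40%, against 39.9% of all probe sets). The loader Cdt1 (cdt1.L) was at 0.07, with 65.5 and 52.2 against 56.1 and 54.7. Geminin, which binds Cdt1 and blocks a second round of licensing, went apart by copy: gmnn.L stood at 226 and 193 in dorsal against 203 and 189 in ventral pools (0.09), while gmnn.S was lower in both dorsal pools, at 58.7 and 52.5 against 65.7 and 64.0 (-0.20, adjusted p = 0.807). Cdc45, which joins the helicase when an origin fires, was at 0.20 (122 and 104 against 96.5 and 98.1). Of its partner complex GINS, gins1.S was at 0.25 and gins3.L at -0.13.

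**Figure D2:**
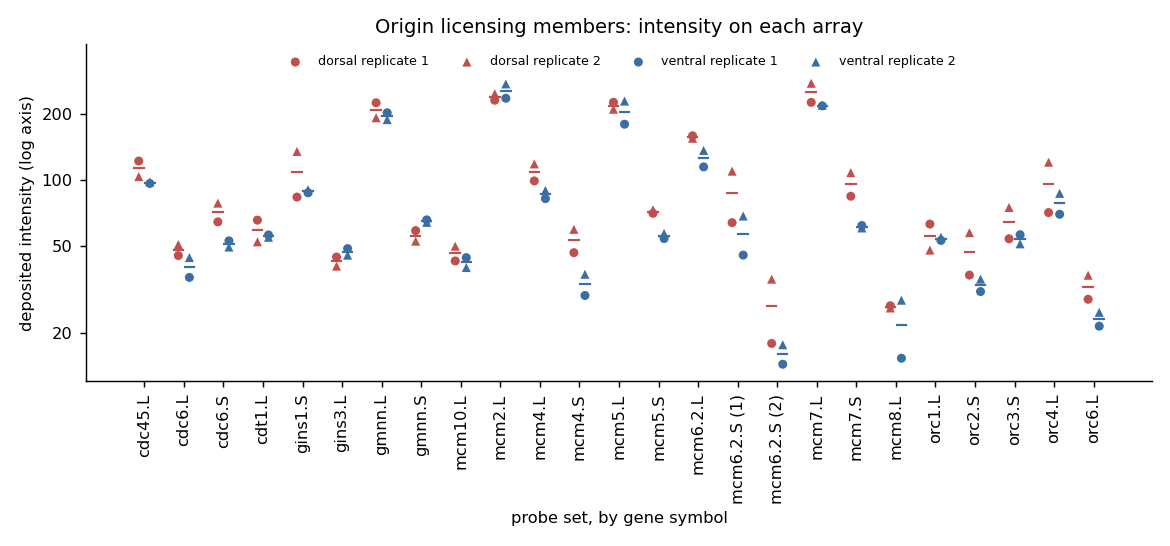
Deposited intensity (vertical axis, log scale) of the 25 tested licensing probe sets on each array, with dorsal replicates in red, ventral replicates in blue and short lines for group means (n = 2 each); numbers in brackets mark the 2 probe sets of mcm6.2.S. For mcm7.S both dorsal values (84.3 and 108) lie above both ventral values (61.9 and 60.4), whereas those of mcm2.L overlap.

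At the replication fork, 19 of 23 tested probe sets had a difference above 0, with a median of 0.15, and 2 reached an unadjusted p under 0.05 (8.70%, against 8.62% of all). PCNA, the sliding clamp that tethers polymerases and a common marker of proliferating cells, was nearly level. Its pcna.L probe set stood at 997 and 897 in dorsal against 837 and 949 in ventral pools, a difference of 0.09 ± 0.14 with a 95% interval from -0.24 to 0.41. The S copy was at 185 and 219 against 196 and 177 (0.11, interval from -0.31 to 0.53). Both copies overlapped between the buds, and both intervals lay within 1.5-fold in either direction. Among the clamp loader genes, all 5 tested rfc probe sets were above 0, from 0.14 for a probe set of rfc3.L to 0.59 for rfc2.L. The value of rfc2.L rested on 1 pool, with 120 and 234 in dorsal against 106 and 113 in ventral buds. It passed without dorsal replicate 1 (1.06, adjusted p = 0.00159) and not with all 4 arrays (adjusted p = 0.654), and was 0.13 without dorsal replicate 2.

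Among the polymerase genes, pold3.L, for an accessory subunit of polymerase delta, stood at 61.0 and 70.2 in dorsal against 48.1 and 41.9 in ventral pools (0.49 ± 0.20, adjusted p = 0.559), with no overlap. The catalytic subunit of the priming polymerase, pola1.S, had 1 high value, 81.5 in dorsal replicate 2, beside 40.9 in dorsal replicate 1 and 42.7 and 41.9 in ventral pools. Its difference of 0.41 did not pass with all arrays (adjusted p = 0.759), passed without dorsal replicate 1 (0.86, adjusted p = 0.0186) and was -0.04 without dorsal replicate 2. Of the 10 tested polymerase and primase probe sets 8 were above 0, with a median of 0.11. Topoisomerase II alpha, which untangles the copied strands, was not level between replicates of one bud: a probe set of top2a.L read 56.5 and 129 in dorsal and 52.4 and 95.7 in ventral pools, and its other probe set gave -0.08.

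Ribonucleotide reductase makes the deoxynucleotides for replication. The gene with the largest difference here was rrm2b.S, for the small subunit that mammalian cells use for repair and outside S phase. Its values were 435 and 494 in dorsal and 252 and 380 in ventral pools, a difference of 0.57 ± 0.22 (adjusted p = 0.527). Without 1 array the difference ran from 0.28, without ventral replicate 1, to 0.86. The S-phase small subunit rrm2.2.L stood at 219 and 204 against 201 and 259 and overlapped (-0.11). Both probe sets of the large subunit rrm1.L were above 0, at 0.16 and 0.23.

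Of the cyclins and their Cdks, 14 of 17 tested probe sets were above 0 (82.4%, against 54.3% of all), with a median of 0.15 and a range from -0.13 to 0.34. Both dorsal arrays lay above both ventral arrays in 8 (47.1%, against 21.9%), and none reached an unadjusted p under 0.05. All 17 had a 95% interval within 2-fold. The mitotic kinase Cdk1 went apart by copy, with cdk1.L at 242 and 329 in dorsal against 230 and 214 in ventral pools (0.34 ± 0.20), and cdk1.S at 174 and 145 against 157 and 193 (-0.13 ± 0.20). Without dorsal replicate 1, cdk1.L passed with 0.56 (adjusted p = 0.0486), and stood at 0.13 without dorsal replicate 2. Cyclin B1, the main mitotic partner of Cdk1, had 284 and 322 against 263 and 248 for ccnb1.2.S (0.24) and 194 and 318 against 244 and 228 for ccnb1.2.L (0.08). Only the S copy had no overlap between the buds. Cyclin A2, which acts in S phase and G2, was at 0.18 for ccna2.L (135 and 140 against 117 and 124) and 0.22 for ccna2.S (58.7 and 64.7 against 56.1 and 48.4), with both dorsal pools above both ventral pools in each copy. Cyclin D1, which relays growth signals in G1, overlapped in both copies (0.15 and 0.01), and so did its kinase partner cdk4.S (0.04). Cdk2, the kinase of S phase, was at 0.25 for cdk2.S.

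Cyclin E1, which starts S phase with Cdk2, was dim. Its tested L probe set read 21.9 and 26.2 in dorsal and 20.2 and 16.2 in ventral pools (0.31, adjusted p = 0.753), and ccne1.S 26.0 and 26.0 against 21.9 and 23.1 (0.17). Another ccne1.L probe set, removed by the filter, read 25.1 and 24.3 in dorsal and 8.72 and 4.27 in ventral pools, and the third 18.1 and 16.5 against 10.6 and 6.30. Dorsal values exceeded ventral values in all 4 cyclin E1 probe sets, tested or not, against 21.9% of all probe sets tested. The 4 read copies of 1 gene on the same arrays. Dorsal levels lay near the highest tag value of 21.5, and ventral levels near or below it.

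Regulators of Cdk activity and of S-phase transcription lay on both sides: 9 of 13 tested probe sets were above 0, with a median of 0.08. Both dorsal arrays lay above both ventral arrays in 5 (38.5%, against 21.9% of all), and the reverse held in 3 (23.1%, against 18.1%). E2F1, an activator of S-phase genes, was the cell cycle regulator farthest to the ventral side: e2f1.L stood at 41.6 and 33.2 in dorsal against 51.7 and 60.6 in ventral pools. That is -0.52 ± 0.21 with an unadjusted p of 0.0449 and an adjusted p of 0.559. Its relatives lay on the other side, with e2f3.S at 0.35 (73.7 and 94.9 against 68.2 and 60.5) and e2f7.L at 0.22, and e2f8.L was at 0.08. The value of e2f4.S, for an E2F that acts mainly as a repressor in resting cells, was 0.56 and rested on dorsal replicate 2 (21.4 and 44.1 against 17.6 and 20.9). It passed without dorsal replicate 1 (0.99, adjusted p = 0.0197) and stood at 0.12 without dorsal replicate 2. Wee1, which holds Cdk1 inactive, was lower in both dorsal pools than in both ventral pools by the tested probe set of each copy. Values of wee1.L were 88.1 and 79.6 against 118 and 102 (-0.36 ± 0.19, adjusted p = 0.66) and those of wee1.S 35.1 and 41.2 against 45.1 and 54.2 (-0.33 ± 0.21, adjusted p = 0.725). The opposing phosphatases stood on the dorsal side, cdc25a.L at 0.38 (133 and 85.2 against 78.0 and 82.6) and cdc25c.L at 0.34 (45.7 and 41.0 against 30.5 and 35.8), with no overlap in either. None of the 4 passed. The value of cdc25a.L rested on dorsal replicate 1, and without 1 array it ran from 0.08 to 0.69. That of cdc25c.L ran from 0.24 to 0.43. Untested dim probe sets overlapped, that of wee1.S at 1.29 and 8.96 against 9.36 and 8.82 and that of cdc25a.L at 8.84 and 33.7 against 12.6 and 1.19. The checkpoint kinase genes chek1.S (0.01 and 0.13) and chek2.L (-0.05) overlapped between the buds.

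**Figure D3:**
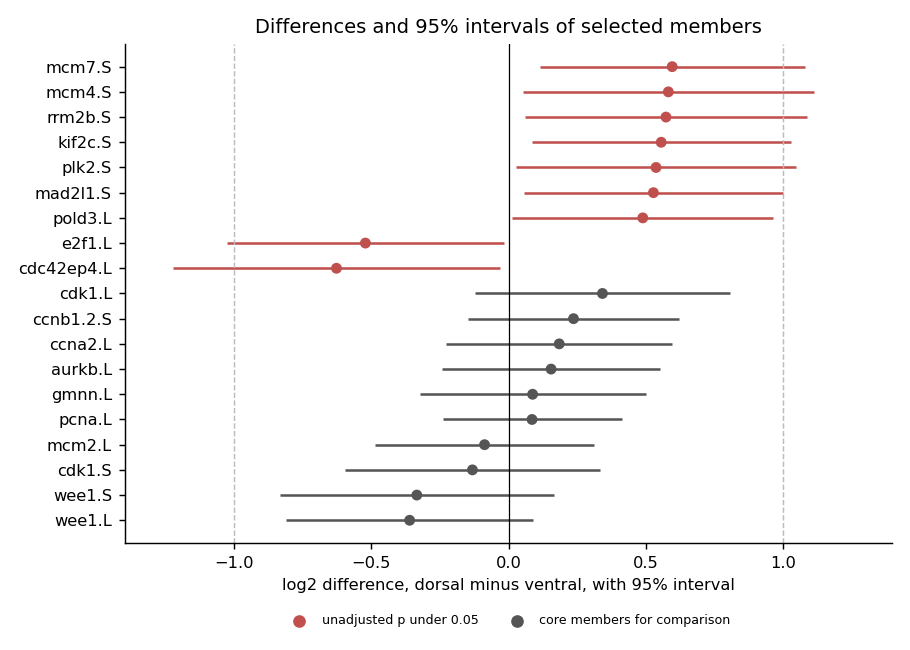
Log2 difference, dorsal minus ventral (points), with 95% intervals from limma (lines) for the 9 probe sets with an unadjusted p under 0.05 (red) and 10 of other genes (grey); dashed lines mark 2-fold. The intervals of mcm7.S, mcm4.S, rrm2b.S, kif2c.S, plk2.S and one of mad2l1.S reach past 2-fold on the dorsal side, and those of pcna.L and mcm2.L stay within it on both sides.

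In mitosis, 18 of 27 tested probe sets of spindle and kinetochore regulators had a difference above 0, with a median of 0.16. Mad2, the checkpoint protein that inhibits the anaphase promoting complex, had the values 238 and 207 in dorsal and 174 and 132 in ventral pools by one mad2l1.S probe set (0.53 ± 0.20, adjusted p = 0.525). By the other, mad2l1.S read 33.5 and 70.2 against 35.8 and 35.4 (0.40), with 1 high dorsal pool, passed without dorsal replicate 1 (0.87, adjusted p = 0.0197) and was -0.07 without dorsal replicate 2. Other spindle checkpoint genes were nearer 0, with bub1.L at -0.10, bub3.L at 0.14 and bub1b.L at 0.24. Polo-like kinase 1, which acts at centrosomes and kinetochores, was above 0 in all 3 plk1.S probe sets (0.19, 0.24 and 0.35). Each had both dorsal pools above both ventral pools, as 21.9% of all probe sets did. The 3 read 1 gene on the same arrays. The related kinase plk2.S, known in mammals for stress responses and centriole duplication, stood at 28.5 and 33.6 against 19.0 and 19.9 (0.54 ± 0.22, adjusted p = 0.551).

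Of 8 tested probe sets of Aurora kinases and their passenger complex, 4 overlapped between the buds, 3 had both dorsal arrays higher (37.5%, against 21.9% of all) and 1 both ventral arrays higher. Aurora A was at -0.10 and 0.16 by copy (aurka.L and aurka.S), and Aurora B at 0.16 (aurkb.L, 217 and 234 in dorsal against 191 and 213 in ventral pools) and 0.09 (aurkb.S). The passenger subunits incenp.L, incenp.S, birc5l.L and birc5l.S ran from -0.13 to 0.19. Tpx2, which activates Aurora A on the spindle, was at 0.27 and 0.52 by the probe sets of tpx2.L and at -0.09 for tpx2.S. All 8 probe sets of the Aurora and passenger genes had a 95% interval within 2-fold. Of the 5 tested centromere protein genes, cenpm.L was at 0.48 (25.3 and 21.1 against 16.6 and 13.4, no overlap) and cenpv.L at -0.38 (52.9 and 39.3 against 88.1 and 42.3, with 1 high ventral pool).

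Of the anaphase promoting complex, the symbol rule took only cdc16, cdc23 and cdc27, with the activator gene cdc20. Their median, -0.004 over 7, was the lowest of the cell cycle role groups with more than 1 tested probe set. The 7 ran from -0.12 to 0.24, and the largest was 1 of 2 tested cdc23.L probe sets, whose other one was at -0.01. The anapc genes of the same complex lie outside the symbol families. Their tested probe sets were all above 0, from 0.03 for anapc7.S to 0.49 for anapc15.S. Cdc20 read 191 and 144 in dorsal and 167 and 142 in ventral pools by cdc20.S (0.11), and cdc20.L was at -0.10. Condensin, cohesin and smc6.1.L (0.03), of a related complex, together had 12 of 15 tested probe sets above 0, with a median of 0.12. The condensin ATPase genes were close to 0, with smc2.L at -0.08 (178 and 191 against 197 and 194) and smc4.L at -0.02 (249 and 204 against 221 and 235). The non-SMC condensin subunits ncapg.L and ncapd2.S were at 0.21 and 0.28, with no overlap between the buds. For ncapg.L the replicates were close, at 142 and 140 in dorsal against 123 and 119 in ventral pools. The 2 probe sets of the cohesin gene smc1a.L were at -0.03 and 0.15, and those of smc3.L at 0.19 and 0.30.

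Of the 16 tested kinesin probe sets 11 were above 0, with a median of 0.09. The microtubule-depolymerising kinesin kif2c.S, known in the frog as XKCM1, lay above 0 in all 3 of its probe sets (0.31, 0.45 and 0.56). Each had both dorsal arrays above both ventral arrays, as 21.9% of all probe sets did. The 3 read 1 gene on the same arrays. The highest of them read 109 and 88.5 in dorsal and 68.0 and 61.7 in ventral pools (adjusted p = 0.494). The spindle motor Eg5 was at 0.19 for kif11.L and 0.37 for kif11.S (154 and 159 against 142 and 101). The transport kinesin kif5b.S had the largest dorsal difference of all 177, but it rested on 1 pool, with 75.6 and 143 against 61.2 and 71.7. Without dorsal replicate 1 it passed with 1.05 (adjusted p = 0.00351), and stood at 0.18 without dorsal replicate 2. Cytokinesis kinesins kif20a.L (0.01) and kif23.S (0.07) were level.

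**Figure D4:**
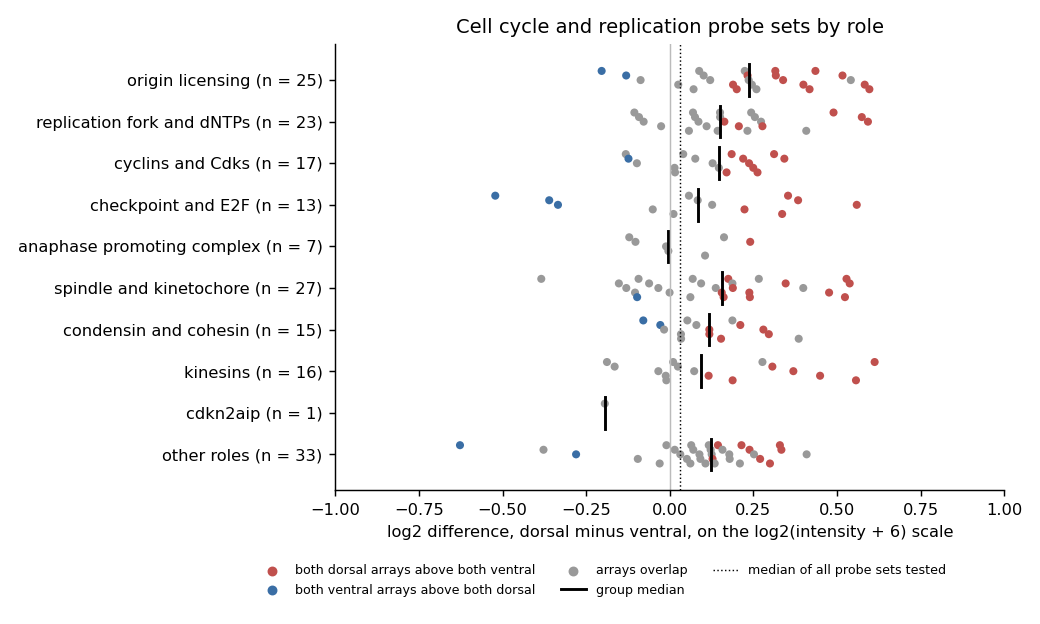
Log2 difference, dorsal minus ventral (horizontal axis), of each of the 177 tested probe sets by role group, with red points where both dorsal arrays exceeded both ventral arrays, blue points for the reverse and grey where arrays overlap; bars are group medians and the dotted line is the median of all 9294 probe sets tested (0.03). The licensing group has the highest median (0.24), and e2f1.L and both wee1 copies are the blue points of the checkpoint group.

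*Xenopus laevis* is allotetraploid, and many genes exist as a copy on a long (L) and a short (S) chromosome. Both copies were tested for 28 of these genes, taking the probe set with the highest mean for each copy. The log2 differences of the copies were less than 0.30 apart in 24 pairs, with a median gap of 0.15 and a widest gap of 0.47 for cdk1. In 16 pairs both copies were above 0, in 4 both were below 0 (wee1, ccnb3, kif2a and cdc23), and in 8 they had opposite signs. The S copy lay above the L copy in 18 of 28 pairs, among them mcm4, mcm5, mcm6.2, mcm7 and cdc6. The difference between copies was not tested, and how far the probes tell L from S transcripts is not given in the sources used here. Repeat probe sets of 1 symbol gave a similar spread: over 20 symbols with more than 1 tested probe set the median range was 0.22 and the widest 0.50, for cdc73.S.

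**Figure D5:**
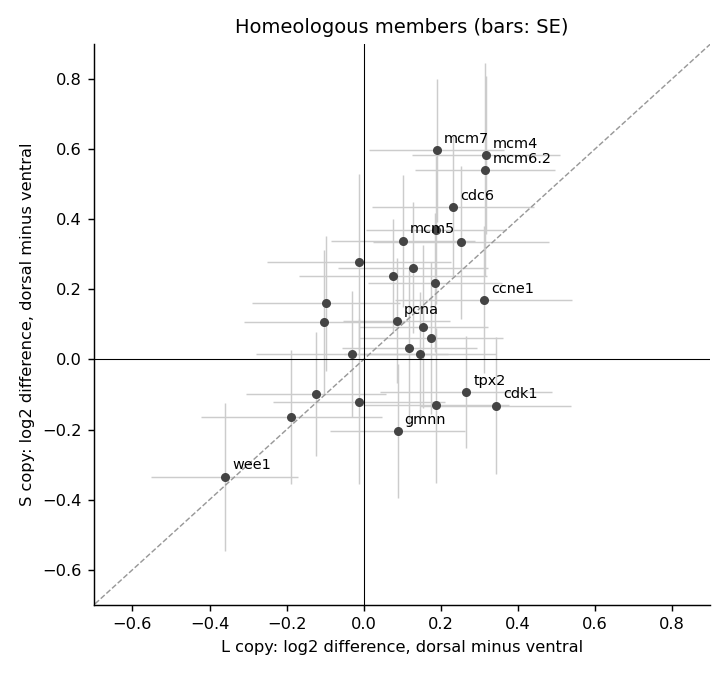
Log2 difference, dorsal minus ventral, of the L copy (horizontal axis) against the S copy (vertical axis) for 28 genes, with bars of 1 standard error and the dashed line of equal differences. The wee1 copies sit together at -0.36 and -0.33, the mcm genes lie above the line, and cdk1 lies farthest from it.

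The median gap between pools of one bud was 0.21 log2 units for dorsal and 0.18 for ventral pools, and the median size of the dorsal-ventral difference 0.16. The 2 dorsal pools differed from each other by more than the dorsal-ventral difference in 106 of the 177 probe sets (59.9%, against 62.0% of all probe sets), and the ventral pools did so in 89 (50.3%, against 46.4%). Between ventral pools a gap of more than 2-fold was seen in 0 of the 177 and in 33 of all 9294 probe sets. Between dorsal pools it was seen in 5 (438 of all 9294), for probe sets of cdc42.L, cdk16.L, top2a.L and cdc34.L. The widest was 1 of 6 probe sets of the polarity GTPase gene cdc42.L, at 70.7 and 263 in dorsal against 115 and 122 in ventral pools. It passed without dorsal replicate 1 (1.12, adjusted p = 0.000931). All 6 cdc42.L probe sets gave differences between 0.06 and 0.21 with all arrays. A probe set of cdk16.L went the other way, at 187 and 63.2 in dorsal against 101 and 97.1 in ventral pools, and was the 1 that passed without dorsal replicate 2 (0.87, adjusted p = 0.0153). The gene farthest to the ventral side, cdc42ep4.L, encodes a Cdc42 effector and was dim, at 9.25 and 14.6 in dorsal against 20.3 and 22.6 in ventral pools (-0.63 ± 0.25, adjusted p = 0.551).

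Several early embryonic or alternative forms were too dim to be tested in either bud. The maternal helicase subunit mcm6.L lay between 0.557 and 2.43 on the 4 arrays, while both copies of its zygotic counterpart mcm6.2 were tested. Cyclin A1, in the frog the A-type cyclin of eggs and early embryos, lay between 0.468 and 5.63 for ccna1.L and between 0.829 and 9.49 for ccna1.S. Also at or below the tag value on every array were ccnb1.S, birc5.L, birc5.S, rrm2.1.L, wee2.L, wee2.S, ccnd2.L, ccne2.L, plk3.L and plk3.S. So was mcm3.L, which is a subunit of Mcm2-7 and not an alternative form. The detection calls of the array are not in the values, so these are low readings only.

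Other genes of the cell cycle, outside the symbol families, were compared in the same way. On the array they had 113 probe sets, of which 95 were tested with limma. In either direction 0 passed, and an unadjusted p under 0.05 was seen for 2, 1 each way (2.11%, against 8.62% of all). The median difference was 0.15, and 69 were above 0 (72.6%, against 54.3%). Both dorsal arrays lay above both ventral arrays in 31 (32.6%, against 21.9%), and the reverse held in 5 (5.26%, against 18.1%). The 4 farthest from 0 were stag1.S, a cohesin subunit, at -0.63, ube2s.S, a ubiquitin-conjugating enzyme of the anaphase promoting complex, at 0.56, the antiproliferative gene btg1.L at 0.53 and anapc15.S, a subunit of that complex, at 0.49. Intensity of btg1.L was 199 and 227 in dorsal and 146 and 145 in ventral pools (adjusted p = 0.434), with no overlap, and that of stag1.S 37.9 and 23.0 against 49.6 and 49.0 (adjusted p = 0.551). Without dorsal replicate 1, 6 of the 95 passed (6.32%, against 9.71% of all), 4 higher and 2 lower in dorsal buds, among them stag1.S (-0.93, adjusted p = 0.0162) and btg1.L (0.62, adjusted p = 0.038), and without dorsal replicate 2, ube2s.S did (0.90, adjusted p = 0.0135). The proliferation antigen gene mki67.S, named after its value was seen, read 144 and 110 in dorsal and 114 and 109 in ventral pools (0.17, adjusted p = 0.862).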

How the data were processed

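The authors deposited linear-scale probe-set intensity values, 1 column per array, and MAS5 is named without a version in the submitters' processing notes. Scaling target, background settings and detection calls are not given in the sources used here. Labelled RNA was made from oligo(dT)-primed cDNA, per the labels' protocols, which favours 3′ ends. For each sample the sources give 1 to 5 ng of total RNA and also a stated RNA input of 10 µg. How these amounts relate was not resolved, and their bearing on the gaps between replicates was not tested. Arrays had been scaled to a common mean before deposit, which hides differences in total RNA per cell; their 2% trimmed means lay within 10% of each other, so that scaling was kept. The 120 control probe sets were left out. Symbols came from the platform annotation. Gene identifiers of 219 of the 220 probe sets were found in a RefSeq table of assembly v10.1, which changed no symbol among them; no positions are given, since the annotation names no build.

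Values were put on the log2 scale after adding 6, their 20th percentile. The 9294 probe sets whose mean log2 exceeded the 40th percentile entered a two-sided limma 3.58.1 test in R 4.3.3 (lmFit, then eBayes with trend) without covariates, at a Benjamini-Hochberg threshold of 0.05. Errors are moderated standard errors. Differences on this scale understate those of dim genes, and the number of arrays limits precision. The procedure was tested on simulated data with planted differences larger than any seen among these genes. That test does not show how often smaller differences would be found. The genes, role groups and lists were chosen with earlier results of these data known. Named were all probe sets past the threshold or with an unadjusted p under 0.05, up to 4 per role group with the largest difference and no overlap, and a fixed set of core genes. All other genes named, such as cdc42.L, cdk16.L, cenpv.L, e2f3.S and mki67.S, were chosen after their values were seen. Alternatives were other pseudocounts, filters and normalizations, a fit without the trend, the replicate block, and each array left out.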

Additional observations from a re-analysis of the deposited data

How the results depend on the processing

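With all 4 arrays, 0 of the cell cycle and replication probe sets passed under any alternative fit. These were a pseudocount of 1 or 4 times as large, no filter or one at the 60th percentile, quantile normalization, median centring, no intensity trend and the replicate block. Subsets without the genes of other roles or with 1 probe set per symbol, chosen after seeing the data, were read from the main fit. Since 0 of the 177 passed there, 0 could pass in either subset. The median of the cell cycle and replication probe sets ran from 0.10 with quantile normalization to 0.15 in the subset without the other roles. The count over all probe sets, 24, was 13 under the stricter filter and 67 with the replicate number as a block. Leaving out 1 array, assuming that the lone remaining array varies as the other bud's arrays do, moved the counts most: from 0 to 11 for cell cycle probe sets that passed, from 1 to 41 for those with an unadjusted p under 0.05, from 0 to 6 for the other pathway genes and from 4 to 902 for all probe sets. The cause was not tested. Of 91 named probe sets with a test, 27 changed sign without 1 array, 4 of these also under another alternative, and 64 kept their sign throughout. All 9 with an unadjusted p under 0.05 kept their sign without each array. That outcome was fixed in advance, since the arrays of the buds did not overlap for any of the 9. Probe sets named for having no overlap could not change sign in this way either. The replicate block changed no call among these genes; deviations of same-numbered arrays correlated at 0.05 over 9294 probe sets and at 0.12 over the 177, and the labels do not say that the numbers pair the pools. With 2 pools per bud the median interval reached 0.49 log2 units to either side, so smaller differences were mostly not detectable. That interval is not adjusted for the number of probe sets tested, so larger differences could also be missed. The log2 difference of 0.60 for mcm7.S did not pass (limma adjusted p = 0.461). Among all 9294 probe sets, 211 had a log2 difference of at least 1 in size and 24 passed, so most differences of that size did not pass.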

Other observations

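Probe sets that the annotation gives to both copies of a gene were left out by the rule, and 4 of them carried a cell cycle or replication symbol. That of pcna read 1246 and 919 in dorsal and 970 and 1170 in ventral pools, a log2 difference of 0.01. For ccnb2 the values were 44.3 and 63.4 against 29.1 and 50.5 (0.41), for cdc23 49.9 and 53.9 against 58.5 and 49.9 (-0.05) and for plk2 49.2 and 37.6 against 46.8 and 40.7 (-0.02). All 4 overlapped between the buds, so the probe set shared by both plk2 copies did not show the separation that the plk2.S probe set did.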
